A study of Mus musculus with 11 samples.

Results

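The 10 genes described here move iron into brain cells, store it, release it or sense it, and they were chosen by symbol from the 36666 genes of the gene count table: Tfrc, Trf, Steap3, Slc11a2, Fth1, Ftl1, Slc40a1, Cp, Ireb2 and Hfe. All 10 were in the table and all 10 passed edgeR's filter on low counts, as did 17983 genes in all. Of the 10 mRNAs, Tfrc, which encodes the transferrin receptor, passed the test at an adjusted p-value under 0.05, as did 1.24% of all genes tested. It was 1.45-fold higher in Polg mutator mice. The call on Tfrc held in 17 of 20 alternative fits and depended on which controls were used. The 9 others did not pass, among them the heavy and light ferritin subunits and the iron exporter ferroportin (Slc40a1).

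Poly(A)+ RNA was sequenced from the cerebrum of 11 male C57/Bl6 mice at 1 year of age. The 7 mutator mice were homozygous for the D257A knock-in allele of Polg, the polymerase that copies mitochondrial DNA, and this allele impairs its proofreading. Of the 4 control littermates, 3 were WT/WT and 1, mouse 237, was a WT/D257A heterozygote, so that 1 control carried the mutant allele. The knock-in is present in every cell of these animals, and each library came from 1 mouse.

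Neurons and the endothelium of brain vessels take up iron as transferrin bound to its receptor, while glia also take up iron by other routes. Iron from the receptor is reduced and pumped out of the endosome before it is stored in ferritin or exported by ferroportin. Iron regulatory proteins bind a stem-loop, the iron responsive element, when a cell is short of iron. Bound at the 3′ end, as in Tfrc, it protects the mRNA from decay, and bound at the 5′ end, as in the ferritin mRNAs and Slc40a1, it blocks translation, so that an mRNA level need not follow the protein level for the latter.

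Matches to the core of the iron responsive element in the members' mRNAs are shown with the end at which they lie. The UTRs of the NCBIM37 (mm9) annotation were searched on the mRNA strand for C, any 5 bases, CAGTGN and 5 further bases, of which at least 4 of 5 had to pair across the 6 base loop. The loop is in capitals.
Tfrc 3′ UTR, chr16:32631305-32631333, plus strand: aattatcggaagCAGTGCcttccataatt
Tfrc 3′ UTR, chr16:32631684-32631712, plus strand: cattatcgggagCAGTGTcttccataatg
Tfrc 3′ UTR, chr16:32631749-32631777, plus strand: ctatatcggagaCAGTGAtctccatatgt
Tfrc 3′ UTR, chr16:32631796-32631824, plus strand: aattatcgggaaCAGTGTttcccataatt
Slc11a2 3′ UTR, chr15:100225584-100225612, minus strand: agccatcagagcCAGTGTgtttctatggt
Fth1 5′ UTR, chr19:10057222-10057250, plus strand: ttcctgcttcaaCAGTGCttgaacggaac
Ftl1 5′ UTR, chr7:52715149-52715177, minus strand: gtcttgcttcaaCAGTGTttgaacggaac
Slc40a1 5′ UTR, chr1:45982310-45982338, minus strand: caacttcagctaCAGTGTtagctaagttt
Each of these had all 5 pairs except that of Slc11a2, which had 4. The pattern is loose, since 189 of 19854 genes with a 5′ UTR (0.952%) and 810 of 19915 with a 3′ UTR (4.07%) hold a match. Among the members it matched in the 5′ UTR of 3 and the 3′ UTR of 2, and a match is a description of letters only. Elements that depart from the pattern would be missed, so the list need not be complete.

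A mouse had between 28249345 and 121182250 gene counts, and levels are given as CPM, counts scaled to the library total with edgeR's TMM factors. The table of read totals listed fewer aligned reads (30449029) than gene counts (91219204) for mutator mouse 248, so depth was taken from the counts. Markers of neurons, astrocytes, oligodendrocytes, microglia and endothelium were all present in the libraries, and 1 neuronal marker of 8, Rbfox3, was not found under that symbol. These are bulk samples, so fewer cells of a type and less RNA per cell cannot be told apart. The labels do not say which mouse was in which sequencing pool, so pool and group cannot be told apart here.

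Tfrc (chromosome 16, 32609006 to 32632880, plus strand) was the member with a difference past the threshold. In the controls it had 134 CPM in mouse 205, 135 in mouse 239 and 127 in mouse 246, which were WT/WT, and 124 in the heterozygote 237. In the 7 mutators it lay between 145 (mouse 249) and 233 CPM (mouse 207), with a median of 187. All 7 mutators were above all 4 controls. The means were 130 ± 5.8 CPM (SD, n = 4) and 188 ± 26.5 CPM (SD, n = 7), and the log2 fold change was 0.53 with a standard error of 0.095 (edgeR adjusted p = 0.0174), that is, 1.45-fold with a 95% confidence interval from 1.25 to 1.66. Spread among the mutators, 14.1% of their mean, was wider than among the controls, at 4.47%.

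**Figure D1:**
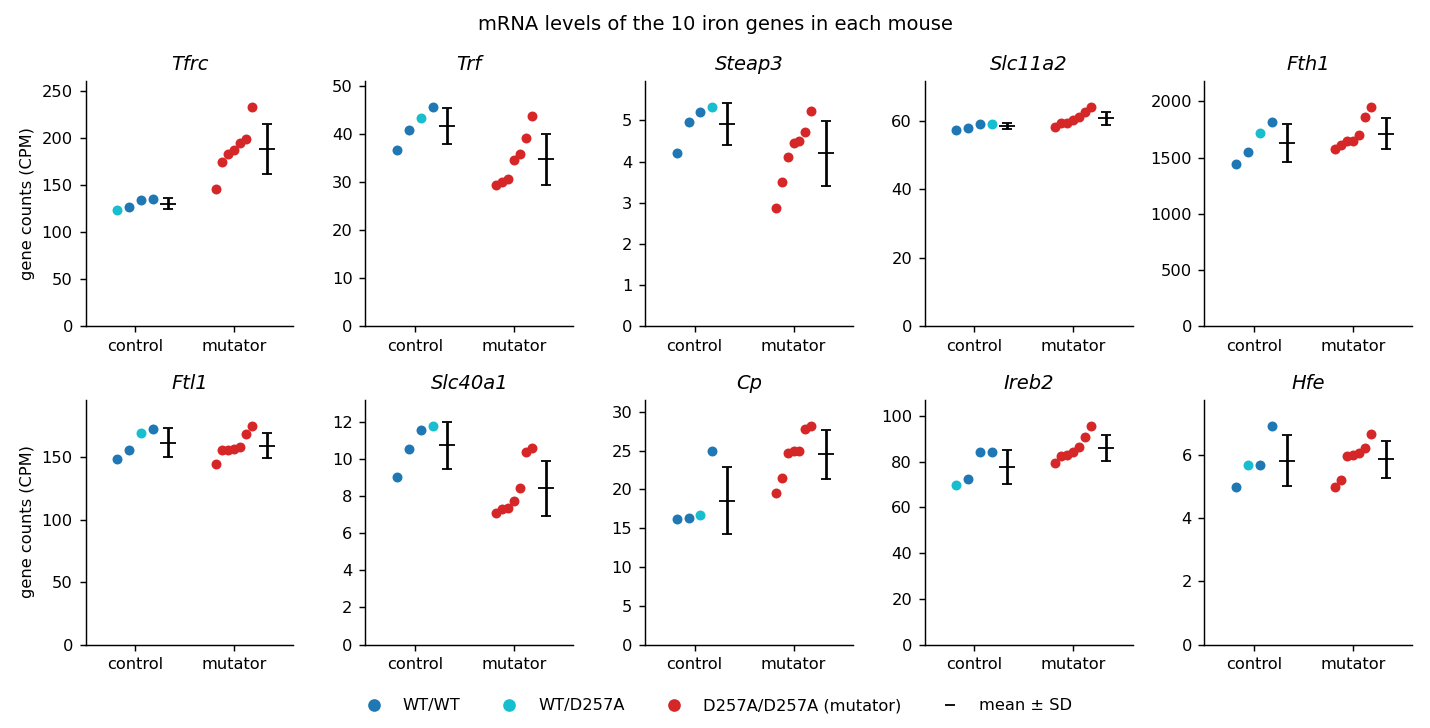
Each panel plots one iron gene, with its level in CPM from gene counts on the vertical axis, starting at 0, and 1 point per mouse; bars give mean ± SD of 4 controls and 7 mutators. In Tfrc the mutators lie between 145 and 233 CPM, above the highest control at 135, while in the 9 other panels the groups overlap.

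As background, 1.24% of all genes passed edgeR's test at an adjusted p-value under 0.05, with 0.439% higher and 0.801% lower in the mutators. The iron genes gave 1 of 10, higher. With no adjustment, 15.8% of all genes had p under 0.05, with 7.18% higher and 8.58% lower, and of the iron genes it was 5 of 10, with Tfrc, Cp and Ireb2 higher and Slc40a1 and Trf lower. Groups that did not overlap were found for 2.62% of all genes tested and for Tfrc alone among the 10. The median log2 fold change of the 10 was 0.040, beside 0.0014 over all genes tested. The members were chosen with earlier results of these data known, so the shares of all genes are a background only.

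The call on Tfrc depended on which controls were used. With the WT/WT controls only, that is, without mouse 237, the log2 fold change was 0.51 and its edgeR adjusted p 0.129, in a fit where 0.273% of all genes passed. Without WT/WT control 246 these values were 0.52 and 0.0609. With each of the 9 other mice left out in turn, the edgeR adjusted p was between 0.00023 and 0.0493.

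The rise of Tfrc ran along its whole mRNA. Each gene had also been split into exon bins, the pieces between the annotated exon ends, counted in the 3 WT/WT and 7 mutator mice. Of the 27 Tfrc bins with enough counts for a test, 27 had a higher mean level in the mutators, with a median log2 difference of 0.55 and a range from 0.13 to 0.73. These bins share their mice and often their reads. Summed over the bins, Tfrc had 132, 133 and 119 CPM in WT/WT mice 205, 239 and 246, and between 142 and 233 in the mutators, and the log2 fold change was 0.53 with a standard error of 0.12 (edgeR adjusted p = 0.135, where 0.264% of all genes passed). The last exon, which holds all 4 stem-loops shown above, took a mean share of 34.9% ± 2.1 of the Tfrc bin counts among the 3 WT/WT mice and of 33.9% ± 0.57 among the 7 mutators (SD). The difference of -0.99 points was smaller than the SD of the WT/WT mice, where mouse 246 had 37.2%, and larger than that of the mutators. That share was not shown to differ between the groups (two-sided exact permutation p = 0.4, adjusted over 2 shares 0.8, smallest possible p 0.0167).

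Levels of cell type markers are given beside Tfrc. Of 8 endothelial markers, 5 were higher and 3 lower, their summed level was between 297 and 349 CPM in the controls and between 330 and 412 in the mutators, and none had an adjusted p under 0.05. Red cell precursors also carry much transferrin receptor. The summed level of 7 blood genes, mostly globins, was between 57.6 and 199 CPM in the controls and between 90.1 and 258 in the mutators. Of the 5 blood genes with a test, 5 were higher in the mutators and 0 lower. Their median log2 fold change was 0.635, and none had an adjusted p under 0.05. The part of these cells in the Tfrc difference was not tested. Over the 11 mice the genes most like Tfrc in log2 CPM were Uevld (Pearson r = 0.94) and Ggnbp1 (r = 0.93), as a description of libraries that share their scaling.

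Trf, which encodes transferrin, the iron carrier that oligodendrocytes and the choroid plexus make in the brain, shows how the counting shaped a level. The gene table has 1 row named Trf, and which of 2 annotated genes of that name it counts is not given in the sources used here, so its values are those of the row. It held 43.2 CPM in the heterozygote 237 and 40.8, 36.7 and 45.5 in WT/WT mice 205, 239 and 246. The 7 mutators had between 29.3 and 43.8 CPM, with a median of 34.5, and 5 of them were below all controls. The means were 41.5 ± 3.8 (SD, n = 4) and 34.7 ± 5.3 CPM (SD, n = 7), and the log2 fold change was -0.26 (95% confidence interval -0.47 to -0.039, edgeR adjusted p = 0.232).

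That row held only 6.43% to 7.35% of the summed bin counts that the exon files give to the Trf exons. A read can count in several bins, so this is not a share of reads. For the 9 other members the same share was between 89.9% and 140%. In the annotation searched here the second gene named Trf runs from the first exons of Trf (chromosome 9, 103106331 to 103132774, minus strand) into the neighbouring gene Srprb, and shares exons with both. In the 38 bins of Trf itself, the WT/WT mice 205, 239 and 246 had 679, 611 and 700 CPM and the mutators between 486 and 720, with a median of 551. The ranges overlapped, since mutator mouse 217 had the highest level of all.

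The direction was the same on both kinds of count. From the bins the log2 fold change of Trf was -0.21 with a standard error of 0.12 and did not pass (edgeR adjusted p = 0.612). All 35 Trf bins tested, which share their mice and often their reads, had a lower mean level in the mutators, with a median of -0.22. The 10 tested bins on the Srprb side had a median of -0.032. Mouse 217 had a summed level of 6886 CPM over 8 oligodendrocyte markers, against 4919 to 5760 in the 10 other mice. Without it, the Trf row of the gene counts passed the test, with a log2 fold change of -0.32 and an edgeR adjusted p of 0.0477. Trf passed in this 1 of 20 alternative fits only. With the WT/WT controls only, its log2 fold change was -0.23 and its edgeR adjusted p 0.555. The summed level of the oligodendrocyte markers was 5495 ± 310 CPM in the 4 controls and 5533 ± 672 in the 7 mutators (SD). Of those 8 markers 6 were lower in the mutators, 4 of them at an unadjusted p under 0.05 and none at an adjusted one, and their part in the Trf values was not tested. The genes most like Trf over the 11 mice were Gpt (r = 0.96) and Cmtm5 (r = 0.96).

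**Figure D2:**
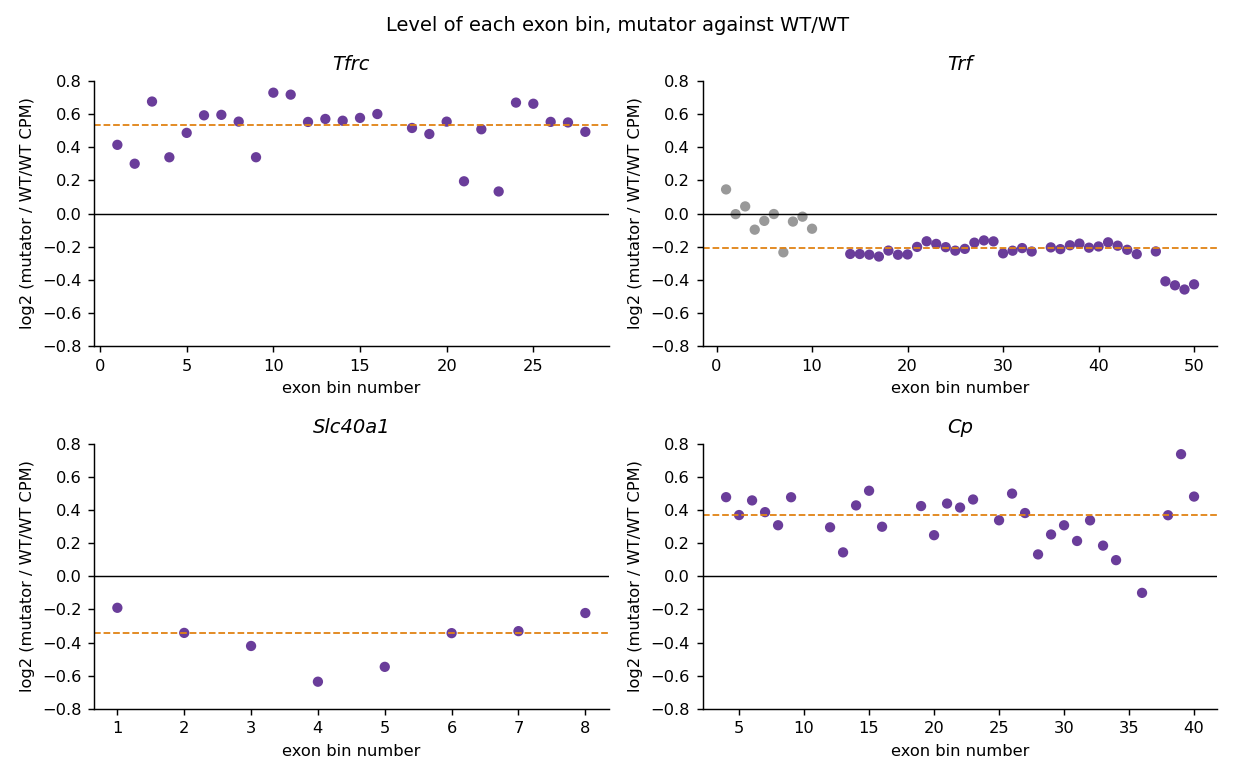
Each point is 1 exon bin of Tfrc, Trf, Slc40a1 or Cp, by its number along the horizontal axis and the log2 ratio of mean CPM in 7 mutator to 3 WT/WT mice on the vertical axis; grey points in the Trf panel lie on the Srprb side and the dashed line is the estimate from the summed bins. All points of Tfrc are above 0, those of Trf and Slc40a1 below, and 29 of 30 of Cp above.

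Downstream of the receptor, the endosomal genes did not pass the test. Slc11a2 encodes DMT1, which carries ferrous iron out of the endosome (chromosome 15, 100218329 to 100255503, minus strand). It was the steadiest member, with 59.1, 57.3 and 57.9 CPM in WT/WT mice 205, 239 and 246, 59.2 in the heterozygote 237 and between 58.2 and 63.9 in the mutators. Although 6 of 7 mutators were above all controls, the ranges overlapped and the log2 fold change was 0.056 (95% confidence interval -0.035 to 0.15, edgeR adjusted p = 0.573).

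Slc11a2 has mRNAs with 2 different last exons, and only one of them holds the stem-loop shown above. In the exon files the last exon with it took 88.6%, 91.2% and 88.3% of the counts at both last exons in WT/WT mice 205, 239 and 246. The mutators had between 87.4% and 91.8%. The means were 89.4% ± 1.6 (SD, n = 3) and 89.0% ± 1.4 (SD, n = 7), a difference within the spread between mice (two-sided exact permutation p = 0.817, adjusted over 2 shares 0.817). Per length, the main part of the last exon with the stem-loop (2612 bases) had 6.31 ± 0.23 CPM per kb and the other last exon (1264 bases) 1.57 ± 0.29 (SD over 3 WT/WT mice). Both ends were present in cerebrum.

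Steap3, a reductase that prepares endosomal iron for DMT1, was the least abundant member per length (chromosome 1, 122087334 to 122169282, minus strand). The controls had 4.95, 4.20 and 5.20 CPM in WT/WT mice 205, 239 and 246 and 5.32 in the heterozygote. In the mutators it lay between 2.87 (mouse 207) and 5.24, with a median of 4.46. The log2 fold change was -0.23 (95% confidence interval -0.51 to 0.050, edgeR adjusted p = 0.421), on as few as 143 counts per mouse.

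The ferritin subunits, which form the iron storage shell, did not pass the test. Fth1, the heavy subunit with the ferroxidase activity (chromosome 19, 10057193 to 10059582, plus strand), had 1551, 1443 and 1813 CPM in WT/WT mice 205, 239 and 246 and 1717 in the heterozygote. The mutators had between 1572 and 1948 CPM, with a median of 1650. Its log2 fold change was 0.072 (95% confidence interval -0.064 to 0.21, edgeR adjusted p = 0.634).

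Ftl1, the light subunit, which helps the iron core to form (chromosome 7, 52713314 to 52715254, minus strand), had 156, 149 and 173 CPM in the same WT/WT mice, 169 in the heterozygote and between 144 and 175 in the mutators. The log2 fold change was -0.021 (95% confidence interval -0.13 to 0.090, edgeR adjusted p = 0.886). As a fold, its 95% confidence interval ran from 0.912 to 1.06. Ferritin genes have processed copies elsewhere in the genome, and reads that also match a copy may have been lost in counting, so the levels of both subunits are less certain than the ratios between mice.

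Both subunits varied together from mouse to mouse. After the group means were removed, Pearson's r between Fth1 and Ftl1 in log2 CPM was 0.85 over the 11 mice, and Ireb2 ran against Fth1 at r = -0.83, both as descriptions without a test. Fth1 also ran with Trf (r = 0.76) and Hfe (r = 0.75), and Ireb2 against Ftl1 (r = -0.71) and Hfe (r = -0.61). The libraries share their scaling, so these values are not particular to any pair. The genes most like Fth1 were Sparcl1 (r = 0.92) and Rpl3 (r = 0.88), and those most like Ftl1 were Fau (r = 0.97) and Psmc5 (r = 0.96). Rpl3 and Fau encode ribosomal proteins.

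The export genes did not pass the test either. Slc40a1, ferroportin, the known iron exporter of vertebrate cells (chromosome 1, 45964915 to 45982439, minus strand), had 11.6, 9.04 and 10.6 CPM in WT/WT mice 205, 239 and 246 and 11.8 in the heterozygote. The mutators had between 7.10 and 10.6 CPM, with a median of 7.77, and 5 of 7 were below all controls. Means of 10.8 ± 1.3 (SD, n = 4) and 8.43 ± 1.5 CPM (SD, n = 7) gave a log2 fold change of -0.35 with a standard error of 0.11 (edgeR unadjusted p = 0.0055, adjusted p = 0.127).

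All 8 exon bins of Slc40a1 had lower mean levels in the mutators, from -0.64 to -0.19 on the log2 scale. These bins share their mice and often their reads, and their sum did not pass the test (edgeR adjusted p = 0.365). Microglia carry ferroportin, and all 8 microglial markers were lower, 4 at an unadjusted p under 0.05 and none at an adjusted one, with summed levels from 277 to 344 CPM in the controls and from 261 to 319 in the mutators. Their part in the Slc40a1 values was not tested. The genes most like Slc40a1 were Sqrdl (r = 0.91) and Fgfrl1 (r = 0.91).

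Cp, ceruloplasmin, the ferroxidase that astrocytes place beside ferroportin (chromosome 3, 19857054 to 19909145, plus strand), had the higher mean in the mutators. WT/WT mice 205 and 239 had 16.2 and 16.3 CPM and the heterozygote 16.7, while WT/WT mouse 246 had 25.0, as much as a typical mutator. The 7 mutators had between 19.6 and 28.2 CPM, with a median of 24.9. The log2 fold change was 0.42 with a standard error of 0.13 (edgeR unadjusted p = 0.0075, adjusted p = 0.142). Without control 246 the log2 fold change was 0.58 with an edgeR adjusted p of 0.00734. With DESeq2, where 3.54% of all genes passed, Cp also passed, at an adjusted p of 0.0201. It passed in these 2 of 20 alternative fits only. With the WT/WT controls only its edgeR adjusted p was 0.438, and from sums of exon bins it was 0.444.

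The endothelial markers had their highest control level in mouse 246 too, at 349 CPM against 297 to 325 in the 3 other controls. The gene most like Cp over the 11 mice was Pecam1 (r = 0.94), an endothelial marker, followed by F13a1 (r = 0.94). Of 8 choroid plexus markers, a tissue that also makes ceruloplasmin, 6 were higher in the mutators and 2 lower, with none past an adjusted p of 0.05. The part of these tissues in the Cp values was not tested.

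**Figure D3:**
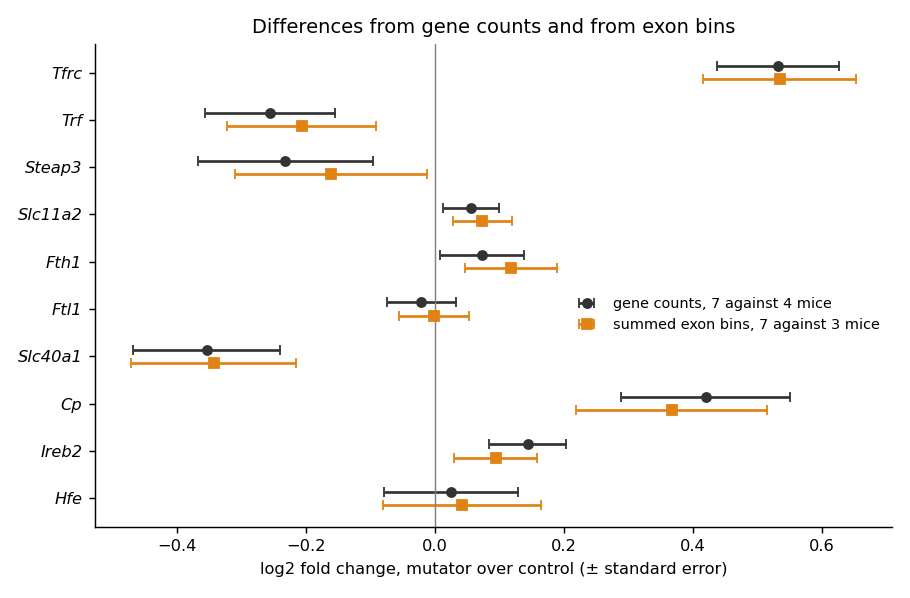
Log2 fold change of mutator over control for each iron gene on the horizontal axis, from gene counts (circles, 7 against 4 mice) and from summed exon bins (squares, 7 against 3 WT/WT mice), with bars of 1 standard error. The estimates of a gene share most of their mice. They lie close together for Tfrc (0.53 and 0.53) and Slc40a1 (-0.35 and -0.34), and farthest apart for Steap3 (-0.23 and -0.16).

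The sensors did not pass the test. Ireb2 encodes iron regulatory protein 2, which binds iron responsive elements (chromosome 9, 54711562 to 54760341, plus strand). It had 84.1, 84.3 and 72.3 CPM in WT/WT mice 205, 239 and 246, 69.9 in the heterozygote and between 79.5 and 95.6 in the mutators. The log2 fold change was 0.14 (95% confidence interval 0.018 to 0.27, edgeR unadjusted p = 0.0268, adjusted p = 0.243). Control of this protein is mostly by its breakdown when iron is plentiful, which mRNA does not show.

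Hfe, which binds the transferrin receptor and is mutated in hereditary iron overload (chromosome 13, 23793903 to 23802723, minus strand), had 5.70, 4.98 and 6.94 CPM in WT/WT mice 205, 239 and 246 and 5.69 in the heterozygote. The mutators had between 5.00 and 6.67 CPM. The log2 fold change was 0.025 (95% confidence interval -0.19 to 0.24, edgeR adjusted p = 0.937). Of the remaining likeness pairs, Slc11a2 was most like Ptx4 (r = 0.93) and RP24-298J16.4 (r = 0.91), Steap3 like Sostdc1 (r = 0.96) and Tmco3 (r = 0.93), Ireb2 like Zfp192 (r = 0.98) and Sp1 (r = 0.97), and Hfe like Isg20 (r = 0.90) and Kdm1b (r = 0.90).

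Levels of different genes can be compared per length, though only roughly from bins, since a read that touches several bins counts in each. From the exon bins, which count Trf more fully, Fth1 led with 1930 ± 234 CPM per kb of exon (SD over 3 WT/WT mice), followed by Trf with 200 ± 14 and Ftl1 with 144 ± 10. Tfrc had 20.7 ± 1.2, Ireb2 12.96 ± 1.4 and Slc11a2 10.4 ± 0.28 CPM per kb. At the low end were Slc40a1 with 2.69 ± 0.27, Cp with 2.41 ± 0.65, Hfe with 1.57 ± 0.24 and Steap3 with 0.700 ± 0.046. The Cp level uses a gene model whose bins differed in number from those of the files (52 against 40), so it and its place in the order are less certain. This order held in all 10 mice with exon files except between Slc40a1 and Cp, where Slc40a1 was the higher in 3 of 10 mice. Many short bins raise such a level, since a Trf bin of 2 bases had 20.2 CPM in WT/WT mice and another of 150 bases 35.5. An Ftl1 bin of 147 bases had 39.0 CPM, so the order of Trf and Ftl1 is not settled by these values. From the gene row, Trf had stood below Ireb2, at 12.5 ± 1.1 CPM per kb in the 4 controls.

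Ratios within a library do not depend on how the libraries are scaled, and 3 were compared. Tfrc to Fth1, uptake against storage, was 0.0867, 0.0939 and 0.0698 in WT/WT mice 205, 239 and 246, 0.0721 in the heterozygote and between 0.0893 and 0.137 in the mutators. The geometric mean of the ratio was 1.36-fold higher in the mutators (two-sided exact permutation p = 0.0242, adjusted over the 3 ratios 0.0364, n = 4 and 7), with control 239 above 2 of the mutators. It no longer passed without the heterozygote 237, where the adjusted exact permutation p was 0.0833, nor without any one of mice 205, 207, 217, 240, 246 or 248, where it was between 0.0571 and 0.075.

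Slc40a1 to Tfrc, export against uptake, was 0.0861, 0.0667 and 0.0835 in the same WT/WT mice and 0.0955 in the heterozygote. The mutators had between 0.0317 and 0.0580, so the groups did not overlap. Tfrc, which is part of this ratio and of that to Fth1, had groups that did not overlap by itself, with a log2 fold change of 0.53. Slc40a1 by itself overlapped between the groups and did not pass (edgeR adjusted p = 0.127). Neither ratio is therefore a result separate from that of Tfrc. The geometric mean of the ratio was 0.543 times that of the controls (two-sided exact permutation p = 0.00606, the smallest that 330 splits allow, adjusted over the 3 ratios 0.0182). Without control 205, 237 or 246 the log2 ratio was -0.86, -0.81 and -0.87, against -0.88 with all mice. With 3 controls the smallest exact permutation p is 0.0167, which adjusted over the 3 ratios gives 0.05 unless another ratio is as low, so that the adjusted p of 0.05 in these 3 cases says nothing about stability. Fth1 to Ftl1 was between 9.70 and 10.5 in the controls and between 9.94 and 11.5 in the mutators, 1.07-fold higher in geometric mean, and did not pass (exact permutation p = 0.0545, adjusted 0.0545).

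**Figure D4:**
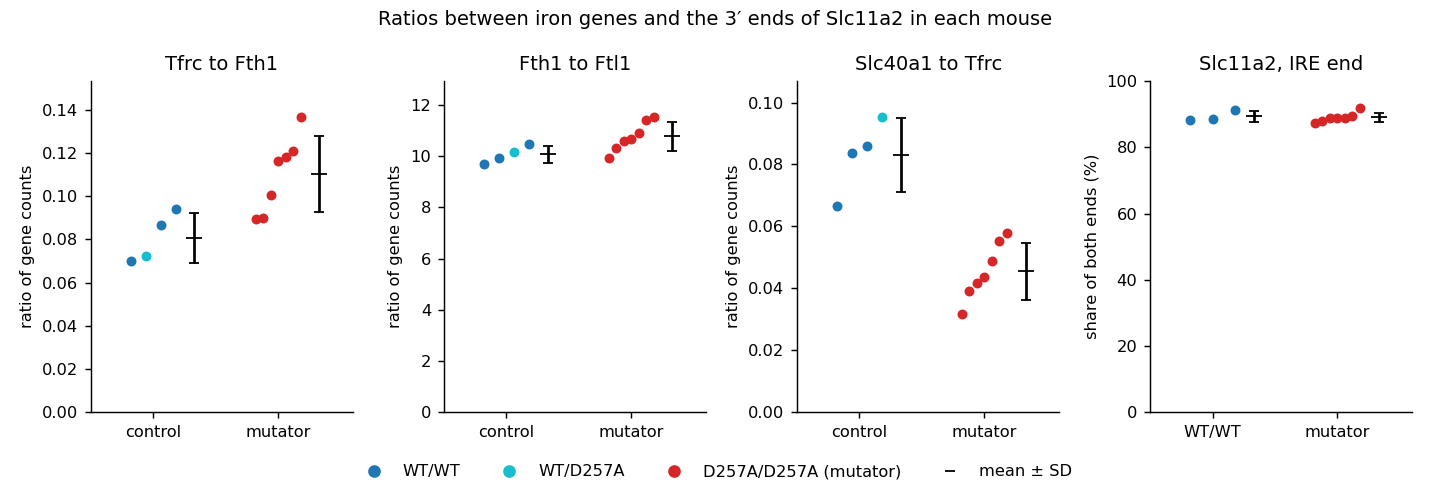
The first 3 panels plot ratios of gene counts within each library, and the last the share of Slc11a2 counts at both last exons that lie in the one with the stem-loop, in percent; each point is a mouse, the vertical axes start at 0 and bars are mean ± SD. For Slc40a1 to Tfrc every mutator (0.0317 to 0.0580) is below every control (0.0667 to 0.0955), while the Slc11a2 shares of both groups lie near 89%.

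Usage of single exon bins, relative to the other bins of the same gene, was not shown to differ in any member. By edgeR's diffSpliceDGE none of the 178 member bins tested had an adjusted p-value under 0.05, nor had the 10 bins tested on the Srprb side, against 49 of 206930 bins in all (0.0237%). Of the 178, 3 had an unadjusted p under 0.05, against 1.9% of all bins. By limma's diffSplice these counts were 0 and 3 as well. The 3 bins had at most 0.636 CPM. They were a bin of Ftl1 with a length of 21 bases (chromosome 7, 52714031 to 52714051), another of 93 bases in the same gene (52714601 to 52714693) and one of 29 bases in Slc11a2 (chromosome 15, 100242665 to 100242693). Their unadjusted diffSpliceDGE p-values were 0.0252, 0.0438 and 0.0339. For each of the other members the bin with the lowest diffSpliceDGE p had an unadjusted p between 0.108 (Steap3) and 0.501 (Trf).

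Around the members, 66 further genes of iron handling were looked at by role, and of the 61 with a test none had an edgeR adjusted p under 0.05. With no adjustment, 6 were higher (9.84%) and 8 lower (13.1%) at p under 0.05, beside 7.18% and 8.58% of all genes. Their median log2 fold change was -0.046, with 22 higher and 39 lower (63.9%), beside a median of 0.0014 and 49.6% lower over all genes. DESeq2 also called none of them. These role lists, too, were chosen with earlier results of these data known.

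The uptake list had 13 genes tested, with Slc22a17, a receptor for lipocalin 2, lowest in p (log2 fold change -0.14, edgeR adjusted p = 0.222). Timd2, a ferritin receptor, had 5 counts in all and no test. In the storage list Pcbp2, an iron chaperone, was lowest in p (log2 fold change 0.050, edgeR adjusted p = 0.572). Mitochondrial ferritin (Ftmt) had 0 counts in every mouse, which allows at most 3 counts a library, or 0.025 to 0.11 CPM, and Ftl2 had 13 in all.

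For export, Heph, hephaestin, a ferroxidase related to ceruloplasmin, was lowest in p, with 8.96 to 11.9 CPM in the controls and 11.1 to 15.1 in the mutators (log2 fold change 0.25, edgeR adjusted p = 0.171), and Hephl1 was too low for a test. Of the systemic control genes, Fam132b, erythroferrone, had the lowest p (log2 fold change -0.69, edgeR adjusted p = 0.214) at a level below 1 CPM, and hepcidin (Hamp) had 7 counts in all.

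The heme list was led in p by Cd163, the macrophage receptor for haemoglobin bound to haptoglobin (log2 fold change 0.35, edgeR adjusted p = 0.134). It had 2.58 to 3.30 CPM in the controls and 3.33 to 4.38 in the mutators. Its groups did not overlap, as was so for 2.62% of all genes tested. Of 18 mitochondrial iron and iron-sulfur cluster genes 15 were lower and 3 higher, with a median of -0.061 and none past the adjusted threshold. Fdxr, which passes electrons to ferredoxin in cluster assembly, had the lowest p (log2 fold change -0.23, edgeR adjusted p = 0.137). Alas2, the red cell enzyme of heme synthesis and a carrier of a 5′ stem-loop, led the last list (log2 fold change 1.02, edgeR adjusted p = 0.334), with 2.05 to 8.54 CPM in the controls and 5.22 to 14.9 in the mutators.

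**Figure D5:**
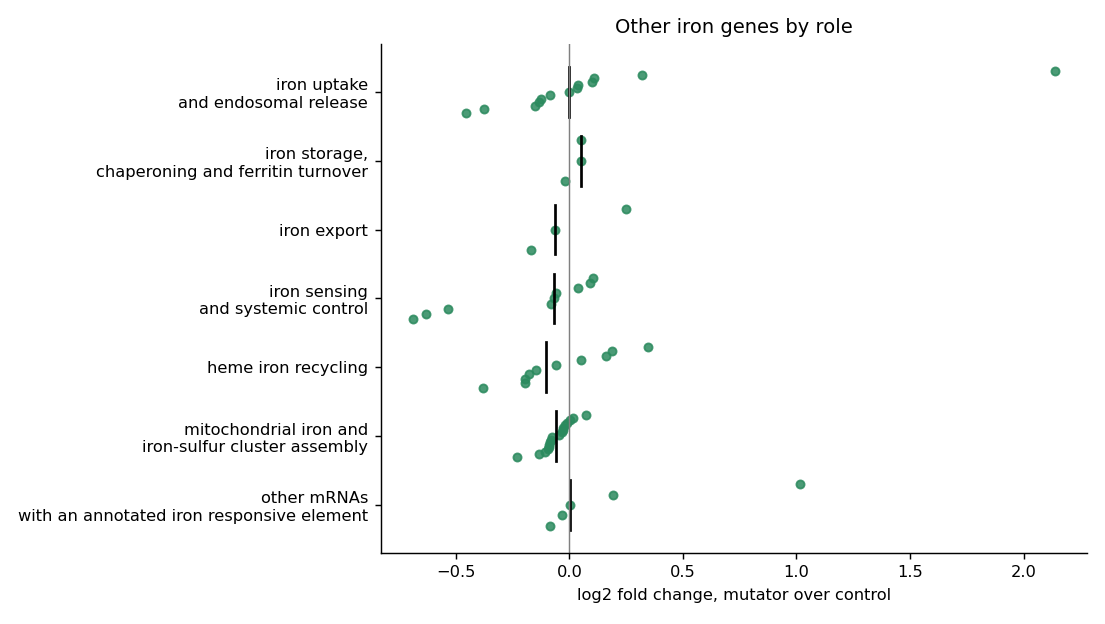
Each point is 1 of the 61 other iron genes tested, by log2 fold change of mutator over control on the horizontal axis and by role on the vertical axis, with a bar at the median of each role. The points farthest right are Ltf at 2.14 and Alas2 at 1.02, and the median of the 18 mitochondrial genes is -0.061.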

How the data were processed

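Per the labels and the study's methods, poly(A)+ RNA of 1 cerebral hemisphere per mouse was sequenced as 100-bp paired reads, aligned by the authors to mm9 with TopHat2 2.0.6 and Bowtie2 2.0.2.0 and counted on Ensembl genes with HTSeq 0.5.3p9. The deposited values are counts per gene (11 mice) and per exon bin (10 mice, without the heterozygote), not normalized. Between 20.6% and 23.4% of the exon file counts lay in no bin and were left out. The authors' tables of fold changes and p-values were not used.

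All genes that passed filterByExpr entered a robust quasi-likelihood fit with TMM factors in edgeR 4.0.16 (R 4.3.3), with Benjamini-Hochberg adjustment and a threshold of 0.05. Exon bins were tested with diffSpliceDGE, and coordinates and UTRs come from an Ensembl annotation of NCBIM37 later than the authors'. Bins rebuilt from it matched the files in number for 9 of 10 members, so no coordinates are given for Cp bins. Levels per kb divide CPM by the length of all annotated exons. Single ratios and shares were compared by exact permutation over mice. Alternatives for genes were DESeq2 1.42.0, normalization by RLE or the upper quartile, filtering by a mean count of 10 or not at all, dropping the heterozygote or the mitochondrial genes, and a covariate for log2 total count or 1 surrogate variable (sva 3.50.0). For bins they were limma 3.58.1 and dropping merged gene groups, and each mouse was left out in turn for both. Sums of exon bins per gene and the shares of the Slc11a2 and Tfrc last exons were added after the data were seen.

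Members and lists were chosen with earlier results of these data known. The genes named are the 10 members, from each role list the gene with the lowest p and those without a test, the lowest-p bins of members, and 2 most alike genes per member by Pearson's r of log2 CPM (prior count 2). On simulated counts with 200 genes changed 2-fold among 17811, edgeR recovered 169 with 8 false calls, and 151 of the 154 with a mean count of at least 100. No smaller changes were simulated, and the largest among the members was 1.45-fold, so recovery at their size is not known. For 200 changed bins among 37322, diffSpliceDGE recovered 175 with 23 false calls. Libraries of a group differed by far more than sampling noise (chi-square per gene 8.73 to 47.4 over 27 pairs). Genes near 1 CPM rest on few counts in the smaller libraries, and bounds from counts cover counting error only.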

Additional observations from a re-analysis of the deposited data

Results flagged for a closer look

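Among the iron genes 1 value stood apart from the rest of its group. Cp in WT/WT control mouse 246 was 25.0 CPM, while the 3 other controls lay between 16.2 and 16.7, a gap of 0.947 of the group's range and above the 95% critical value of Dixon's test for 4 samples. In all, 29 groups of values were looked at in this way, where chance gives about 1.45 such values. The exon bins gave the same picture, with 30.2 CPM in mouse 246, the highest of the 3 WT/WT mice. The heterozygote 237, without which Tfrc did not pass the test, was below the WT/WT range for Tfrc (124 against 127 to 135 CPM) and Ireb2, above it for Slc40a1, Slc11a2 and Steap3 and inside it for the 5 other members. With 1 such mouse, no difference from WT/WT can be tested.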

How the results depend on the processing

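No paired analysis was possible because the labels give no replicate numbers shared between the groups. The count of all genes called, 223, became 615 with DESeq2, 346 with no filter, 50 with WT/WT controls only and 46 with sums of exon bins, and 50 to 412 with each mouse left out. The count of iron genes called, 1, became 2 with DESeq2 (Tfrc and Cp), 0 with WT/WT controls only and 0 with sums of exon bins, and 0 to 2 with each mouse left out. That of the other iron genes, 0, was 0 to 2 with each mouse left out: without control 246, Lcn2 (log2 fold change 4.75, edgeR adjusted p = 0.00152) and Ltf (3.84, 0.0216) passed. Exon bins called, 49, became 25 with limma and 21 without merged gene groups, and 5 to 186 with each mouse left out, with 0 in the iron genes throughout.

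The log2 fold change of Tfrc lay between 0.47 and 0.59 over 20 distinct alternatives (the WT/WT controls only are the fit without control 237) and passed in 17 of them, with adjusted p from 1.28e-06 to 0.135. The log2 ratio Tfrc to Fth1, 0.45, was 0.40 with WT/WT controls only (adjusted exact permutation p = 0.0833) and 0.40 with exon bins (0.0667), and 0.38 to 0.52 with each mouse left out. The log2 ratio Slc40a1 to Tfrc, -0.88, was -0.81 with WT/WT controls only and -0.87 with exon bins (both 0.05), and -0.98 to -0.80 with each mouse left out. Fth1 to Ftl1, 0.096, was 0.078 to 0.12 with each mouse left out and passed without mutator 211 (adjusted exact permutation p = 0.0286). With 3 controls the smallest possible exact permutation p is 0.0167, which adjusted over the 3 ratios gives 0.05 unless another is as low. With each mouse left out, Ftl1 lay between -0.060 and 0.012 and Hfe between -0.044 and 0.11. Ftl1 turned to 0.0028 with WT/WT controls only, that is, without control 237, to 0.012 without control 246 and to 0.0027 without mutator 248, and Hfe to -0.0064 without mutator 217 and -0.044 without control 239. The 8 other members had the same sign under all 20 alternatives. The cause of these changes was not tested.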

Other observations

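Lcn2, which encodes the siderophore binding protein lipocalin 2, and Ltf, which encodes lactoferrin, were looked at after their values were seen. Lcn2 had 12.2 CPM in WT/WT control 246, at most 0.161 CPM in the 3 other controls and 1.16 to 3.97 in the mutators. Ltf had 0.690 CPM in control 246, at most 0.138 in the 3 other controls and 0.289 to 1.15 in the mutators, on 77 counts at most. With all 4 controls their log2 fold changes were -0.46 and 2.14 (edgeR adjusted p = 0.9 and 0.268). Control 246 was also the highest control for Cp, Hfe, Trf, Fth1 and Ftl1, and the highest of the 4 for the summed blood genes, at 199 CPM against 57.6 to 103 in the others.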
